A study of Gallus gallus with 2 samples.

Results

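The transcripts described here are those with a clearly higher signal in DT40 cells without PTIP than in wild-type DT40 cells. They were chosen by their own signals: a probe set (a group of short probes that together measure a transcript) had to carry 1 gene symbol, to reach a signal of 500 in the PTIP deficient array and to be at least 4 times as bright there as in the wild-type array. Of 27168 probe sets with 1 gene symbol, covering 13009 genes, 66 passed both limits, and they belonged to 53 genes. A set of 11 symbols (14 probe sets) is not described here, which left 52 probe sets of 42 genes. Passing probe sets made up 0.243% of all probe sets with 1 symbol. With the arrays exchanged, the same limits were passed by 121 probe sets of 85 genes, or 0.445%. Because the limits were set on this very contrast, these shares and the differences below describe the selection and are not evidence for it.

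DT40 is an established chicken B cell line derived from the bursa of Fabricius, the organ in which birds form B cells. The compared samples were a clone of PTIP deficient cells, genotype PTIP-/-/-, and a clone of wild-type cells, both kept at 39°C. Total RNA of each was labelled with biotin and hybridised to its own chicken genome array. There was 1 array per genotype, 2 in all, so no difference below has a replicate check, and a difference between genotypes cannot be told apart from one between clones, cultures or hybridisations.

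PTIP, encoded by PAXIP1, is a protein with BRCT domains that takes part in the response to DNA damage. It is also a subunit of a histone methyltransferase complex that places methyl groups on lysine 4 of histone H3, a mark of active promoters and enhancers. In mammalian B cells, PTIP is known for its part in immunoglobulin class switching.

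The disrupted gene itself was checked first. The only measured PAXIP1 probe set read 593 in PTIP deficient cells and 1045 in wild-type cells, a log2 ratio of -0.82, and the others were at 8.66 and 6.65 in PTIP deficient cells and at 4.34 and 19.7 in wild-type cells. Where these probes lie relative to the targeted exons is not known here. Each array had a trimmed mean signal of 499.9, and the median log2 ratio over all 9165 genes measured in both arrays was 0.03. A signal counted as measured at or above a floor of 31.0, which 60.4% of probe sets reached in the PTIP deficient array and 59.6% in the wild-type array. For actin, the 3' probe set over the 5' one, a measure of RNA integrity, gave 1.09 in PTIP deficient and 1.20 in wild-type cells. The hybridisation and labelling spike-in controls were brighter in the PTIP deficient array for 23 of 23 probe sets, with a median log2 ratio of 0.30. Probe sets for foreign reporter sequences reached 131.5 outside 1 bright signal. A wild-type signal under 131.5 was therefore taken as a limit, and the fold difference is then given as "at least" the PTIP deficient signal over 131.5.

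The 42 genes fell into those with a wild-type signal above the reporter level and those without. In 21 genes the wild-type signal was at or above 131.5, and their median fold difference was 5.08. Over all such probe sets, folds ran between 4.004 and 11.3. In the other 21 genes the wild-type signal was under 131.5, and in 6 of these it was also under the floor of 31.0. Over the probe sets with such limits, bounds ran between 3.88 and 26.6. The median signal of the 42 genes was 1015 in PTIP deficient cells and 131 in wild-type cells. Among all probe sets the median percentiles of the genes were 85.4 in the PTIP deficient and 64.3 in the wild-type array.

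**Figure D1:**
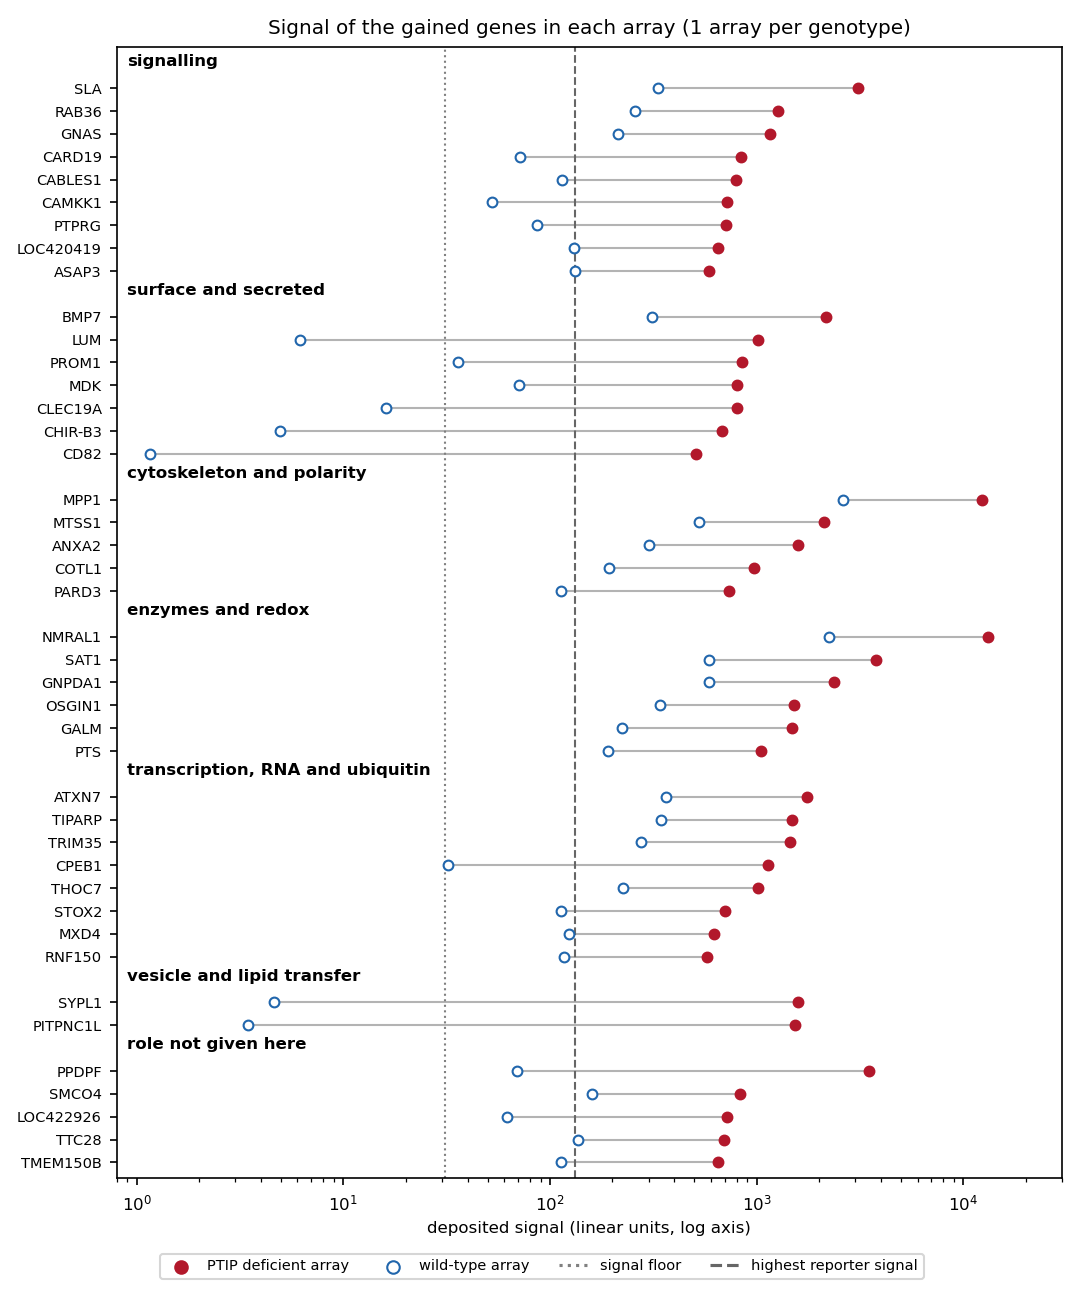
Deposited signal (linear units, log axis) of the brightest selected probe set of each of the 42 genes, grouped by function, with the PTIP deficient array as filled circles and the wild-type array as open circles. The dotted line is the floor of 31.0 and the dashed line the reporter level of 131.5; wild-type signals of 21 genes lie left of the dashed line, and every PTIP deficient signal lies at 509.8 or above.

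Genes for signalling proteins numbered 9. The share of such genes on the array was not counted, so the size of this group is a description only. SLA, an adaptor that in mammals dampens antigen receptor signalling, passed with 3 probe sets. Their signals were 3092, 2236 and 2100.1 in PTIP deficient cells, against 333, 403 and 186 in wild-type cells, which is 9.29-, 5.55- and 11.3-fold. All 3 probe sets of this gene gave a wild-type signal above the reporter level. RAB36, a small GTPase of the Rab family of membrane traffic regulators, had 1272 in PTIP deficient and 258 in wild-type cells, 4.93-fold. GNAS, the stimulatory G protein alpha subunit that activates adenylyl cyclase, had 1161 in PTIP deficient and 214 in wild-type cells, 5.42-fold, and 559 against 105 with a second probe set, at least 4.25-fold. CAMKK1, a calcium and calmodulin dependent kinase that activates other kinases, had 716 and 678 in PTIP deficient cells, against 52.2 and 64.9 in wild-type cells. Both wild-type values are under the reporter level, so the differences are at least 5.44- and 5.16-fold.

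The remaining signalling genes each passed with 1 probe set. CARD19, a protein with a caspase recruitment domain, had 844 in PTIP deficient and 71.6 in wild-type cells, at least 6.42-fold. CABLES1, a substrate that links CDK5 and ABL kinases, had 796 in PTIP deficient and 114 in wild-type cells, at least 6.05-fold. PTPRG, a receptor tyrosine phosphatase, had 712 in PTIP deficient and 86.9 in wild-type cells, at least 5.41-fold. ASAP3, which switches off Arf GTPases and acts on the actin cytoskeleton, had 587 in PTIP deficient and 132 in wild-type cells, 4.45-fold. LOC420419, for which no role is given here, was grouped with them because RefSeq lists MAPKKK3L as its synonym. It had 652 in PTIP deficient and 131 in wild-type cells, at least 4.96-fold.

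Genes for surface and secreted proteins numbered 7, and in 6 of them the wild-type signal was under the reporter level. BMP7, a secreted ligand of the TGF beta family, was the exception, with 2156 in PTIP deficient and 313 in wild-type cells, 6.88-fold. LUM, lumican, a small leucine-rich proteoglycan of the extracellular matrix, had 1019 in PTIP deficient and 6.18 in wild-type cells, at least 7.75-fold. PROM1, prominin, a membrane protein found on several stem and progenitor cells, had 850.2 in PTIP deficient and 35.7 in wild-type cells, at least 6.46-fold. MDK, midkine, a heparin-binding growth factor, had 807 in PTIP deficient and 70.9 in wild-type cells, at least 6.13-fold. CLEC19A, a protein with a C-type lectin domain, had 801 in PTIP deficient and 16.2 in wild-type cells, at least 6.09-fold. CHIR-B3 belongs to the chicken immunoglobulin-like receptors, a large family of similar leukocyte receptors. It had 677 in PTIP deficient and 4.92 in wild-type cells, at least 5.15-fold, and with near-identical family members its signal cannot be assigned to 1 gene with certainty. CD82, a tetraspanin, had 509.8 in PTIP deficient and 1.16 in wild-type cells. Its bound of 3.88-fold is the lowest of the 42 genes, because its PTIP deficient signal lay just above the limit.

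Cytoskeleton and polarity genes numbered 5, and 4 of them had a wild-type signal above the reporter level. MPP1, a membrane scaffold of the guanylate kinase family first known from red cells, had 12323 in PTIP deficient and 2620 in wild-type cells, 4.70-fold. MTSS1, an I-BAR protein that bends membranes and binds actin, had 2116 in PTIP deficient and 529 in wild-type cells, 4.004-fold. ANXA2, annexin A2, which binds membranes in a calcium dependent way, had 1589 and 927 in PTIP deficient cells, against 301 and 198 in wild-type cells, 5.27- and 4.69-fold. COTL1, a coactosin that binds actin filaments, had 972 in PTIP deficient and 194 in wild-type cells, 5.02-fold. PARD3, a scaffold of the cell polarity complex, had 737 in PTIP deficient and 113 in wild-type cells, at least 5.60-fold.

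Enzyme and redox genes numbered 6, and all had a wild-type signal above the reporter level. NMRAL1, a sensor of the NADPH state of the cell, passed with 3 probe sets. Their signals were 13088, 8156 and 2800.2 in PTIP deficient cells, against 2246, 1106 and 307 in wild-type cells, 5.83-, 7.37- and 9.11-fold. SAT1, which acetylates the polyamines spermidine and spermine and so starts their breakdown, had 3775 in PTIP deficient and 587 in wild-type cells, 6.43-fold. Its brightest probe set did not pass, with 6882 in PTIP deficient and 1993 in wild-type cells, 3.45-fold. GNPDA1, which deaminates glucosamine 6-phosphate, had 2362 in PTIP deficient and 588 in wild-type cells, 4.01-fold. OSGIN1, a growth inhibitor induced by oxidative stress in mammals, had 1508 and 836 in PTIP deficient cells, against 342 and 202 in wild-type cells, 4.41- and 4.14-fold. GALM, galactose mutarotase, had 1474 in PTIP deficient and 222 in wild-type cells, 6.64-fold. PTS, an enzyme of tetrahydrobiopterin synthesis, had 1054 in PTIP deficient and 191 in wild-type cells, 5.52-fold.

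Genes acting in transcription, RNA handling and ubiquitin transfer numbered 8. ATXN7, a subunit of the SAGA coactivator complex that anchors its deubiquitinase, had 1755 and 1576 in PTIP deficient cells, against 363 and 309 in wild-type cells, 4.84- and 5.10-fold. TIPARP, an ADP-ribosyltransferase that in mammals is induced by the aryl hydrocarbon receptor and represses it, had 1481 in PTIP deficient and 344 in wild-type cells, 4.31-fold. TRIM35, a RING-type member of the tripartite motif family, had 1453 in PTIP deficient and 275 in wild-type cells, 5.29-fold. CPEB1, an RNA-binding protein that controls the length of cytoplasmic poly(A) tails, had 1137 and 993 in PTIP deficient cells, against 32.1 and 6.74 in wild-type cells. Those wild-type values give bounds of at least 8.65- and 7.55-fold. THOC7, a subunit of the THO complex of mRNA export, had 1011 in PTIP deficient and 225 in wild-type cells, 4.50-fold.

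The other 3 genes of this group had wild-type signals just under the reporter level. STOX2, which carries a winged-helix domain of the storkhead type, had 702 in PTIP deficient and 113 in wild-type cells, at least 5.34-fold. MXD4, a partner of MAX that opposes MYC, had 624 in PTIP deficient and 123 in wild-type cells, at least 4.74-fold. RNF150, a RING finger protein, had 577 in PTIP deficient and 117 in wild-type cells, at least 4.38-fold.

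A pair of genes related to vesicles and lipid transfer had a wild-type signal close to 0. SYPL1, a vesicle membrane protein related to synaptophysin, had 1586 in PTIP deficient and 4.65 in wild-type cells, at least 12.1-fold. PITPNC1L, related by name to a phosphatidylinositol transfer protein, had 1527 in PTIP deficient and 3.47 in wild-type cells, at least 11.6-fold. Each was measured by a single probe set.

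For 5 genes no role is given here. PPDPF had 3501 in PTIP deficient and 68.9 in wild-type cells, and its bound of at least 26.6-fold is the highest of the 42 genes. SMCO4 had 833 in PTIP deficient and 160.5 in wild-type cells, 5.19-fold, and TTC28 had 697 against 137, 5.08-fold. LOC422926 had 718 in PTIP deficient and 61.9 in wild-type cells, at least 5.46-fold, and TMEM150B had 647 against 114, at least 4.92-fold.

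**Figure D2:**
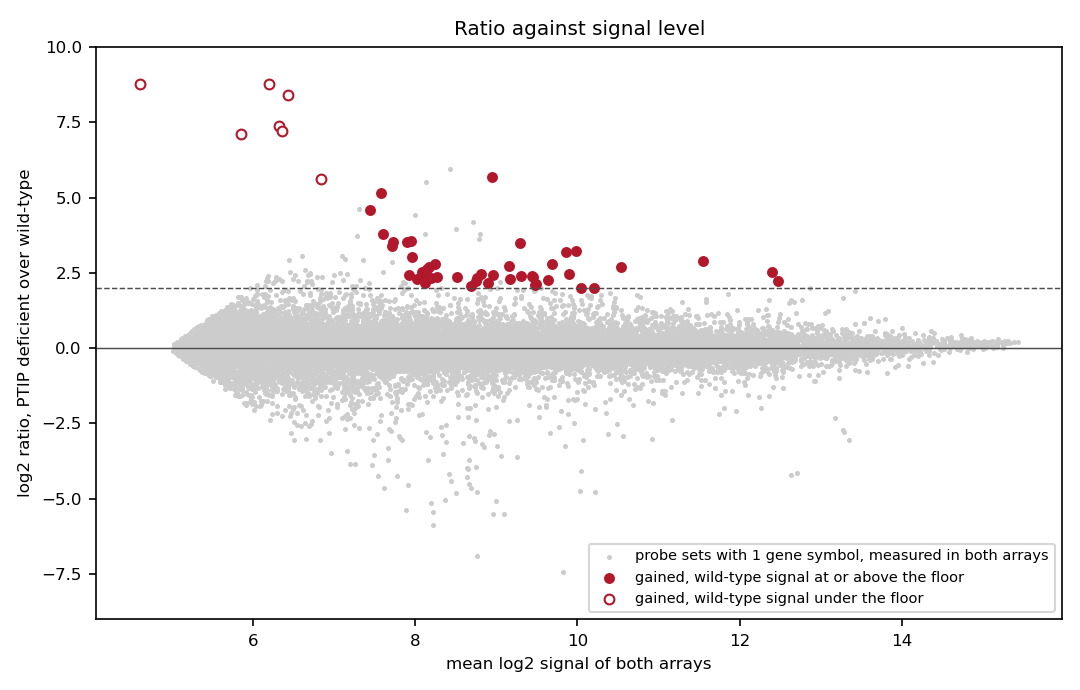
Log2 ratio of PTIP deficient over wild-type signal against the mean log2 signal of both arrays, for probe sets with 1 gene symbol measured in both arrays (grey) and for the 52 selected probe sets (red, open where the wild-type signal is under the floor of 31.0). The dashed line marks a 4-fold difference. Where a wild-type signal is under 131.5, as for all open and some filled red circles, the height is not a measured fold.

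The limits cut through a continuous distribution. Just inside the fold limit lay MTSS1 and GNPDA1, at 4.004- and 4.01-fold. Just outside it lay MBOAT1, with 638 in PTIP deficient and 160 in wild-type cells, TMEM82, with 1024 against 258, and a probe set of STMN2, with 14923 against 3759 (3.97-fold). The second probe set of MPP1, with 1399 in PTIP deficient and 359 in wild-type cells, also fell just short at 3.89-fold. Near the signal limit, CD82 was just inside at 509.8 in PTIP deficient cells, and ANO5 was just outside with 494 in PTIP deficient and 111 in wild-type cells. A second probe set of BMP7, at 493 in PTIP deficient and 107 in wild-type cells, also lay just outside.

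Other probe sets of the same genes give a repeat within the same 2 arrays, which covers probe error and neither clones nor cultures. Of the 42 genes, 15 had 1 probe set, and 24 had at least 1 further probe set that did not pass both limits, 46 in all. Of these 46, 19 were measured in both arrays, 13 of them at least 2-fold higher in PTIP deficient cells, 6 within 2-fold and 0 lower, with log2 ratios between -0.49 and 2.54. The share at least 2-fold higher over all measured probe sets with 1 symbol was 4.77%; the contrast is the one that chose the genes, so nothing is read from the comparison. A further 14 reached the floor in the PTIP deficient array only, 1 in the wild-type array only and 12 in neither. Among the 17 with a PTIP deficient signal of at least 131.5, 16 were at least 2-fold higher there by their deposited signals. TRIM35 was the exception. Its second bright probe set had 739 in PTIP deficient and 437 in wild-type cells, a log2 ratio of 0.76, so its probe sets disagree. The filter at 131.5 used only the array in which the genes were chosen to be high, so nothing is read from the 16 of 17. Some wild-type signals in these counts were under 131.5, so those ratios are not measured folds. The largest log2 ratio, 5.93 for CPEB1, rests on a wild-type signal of 5.31, under the floor. Against the reporter level some of the 16 are not past 2-fold, such as CABLES1, with 210 in PTIP deficient and 36.2 in wild-type cells.

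By deposited signals, several genes showed the difference with nearly every probe set. RNF150 had 292 and 160 with its other probe sets in PTIP deficient cells, against 81.1 and 35.9 in wild-type cells. The other probe sets of PARD3 gave 176, 125 and 110 in PTIP deficient cells, against 36.1, 24.5 and 19.4 in wild-type cells. The remaining probe set of CPEB1 had 323 in PTIP deficient and 5.31 in wild-type cells. All wild-type signals of these other RNF150, PARD3 and CPEB1 probe sets were under 131.5, so their ratios are not measured folds. In contrast, the other probe sets of ASAP3, OSGIN1 and ANXA2 were dim and within 2-fold, at 53.5, 77.7 and 46.1 in PTIP deficient cells and 56.0, 79.1 and 63.4 in wild-type cells. As a general measure of probe error, the difference in log2 ratio between the 2 brightest measured probe sets had an SD of 0.50 across 4284 genes, which corresponds to 0.36 for a single probe set. In 14 genes all selected probe sets were of the types that the array maker marks as able to match several transcripts.

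**Figure D3:**
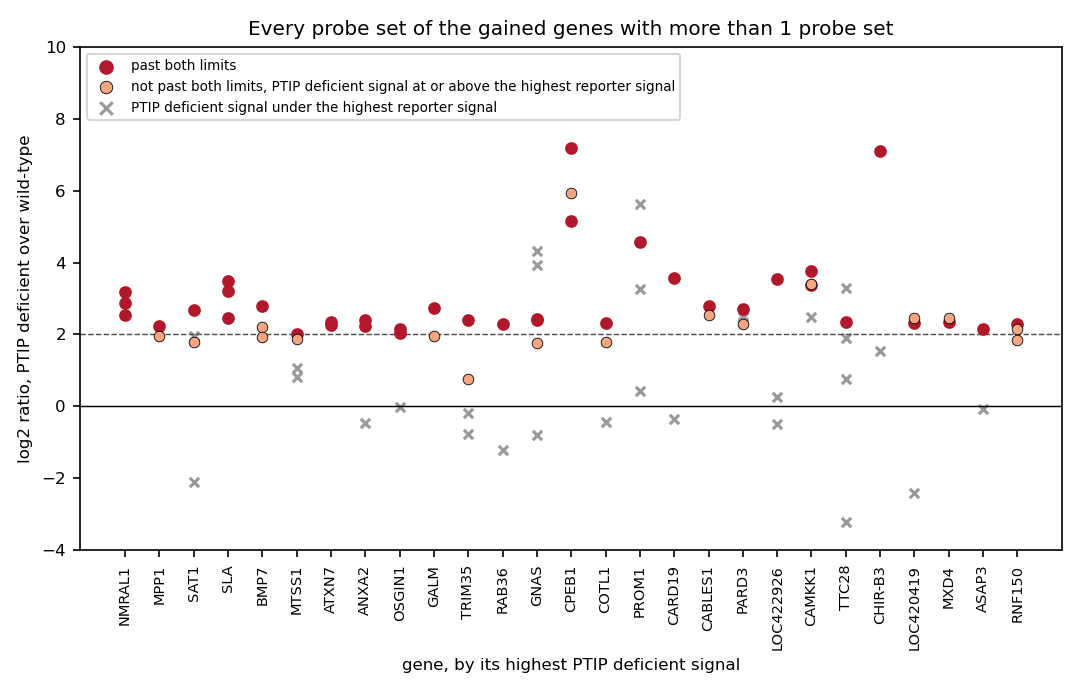
Log2 ratio of PTIP deficient over wild-type signal for every probe set of the 27 genes with more than 1, with selected probe sets in red, other probe sets whose PTIP deficient signal was at least 131.5 in orange, and dimmer ones as grey crosses. The orange points lie above 1 on the log2 scale, apart from TRIM35 at 0.76, while the crosses scatter on both sides of 0. Orange points and crosses are split by the array in which the genes were chosen to be high, so nothing is read from this split. Where a wild-type signal is under 131.5, the height is not a measured fold.

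Next, the other known members of the pathways of these genes were examined, in 21 sets drawn up for 22 of the genes. Of 231 such genes on the array, 175 were measured in both arrays. Higher by at least 2-fold in PTIP deficient cells were 10 of them (5.71%), 8 were lower by as much and 157 lay between, with a median log2 ratio of 0.07. The same shares over all 9165 measured genes were 5.03% higher and 4.46% lower. The share of pathway genes that were higher was thus near that of all genes, and in 13 of the 21 sets none was higher.

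The aryl hydrocarbon receptor set, drawn up for TIPARP, held the most genes that were higher, 4 of 5 measured. This ligand-activated transcription factor pairs with ARNT proteins and induces enzymes that oxidise foreign compounds. AHR1A, a chicken form of the receptor, had 294 in PTIP deficient and 55.2 in wild-type cells, at least 2.23-fold against the reporter level. ARNT2, a partner of the receptor, had 305 in PTIP deficient and 116 in wild-type cells, at least 2.32-fold. CYP1A1, its classic target, had 182 in PTIP deficient and 52.2 in wild-type cells, at least 1.38-fold. NQO1, a quinone reductase, had 13344 in PTIP deficient and 5719 in wild-type cells, 2.33-fold. ARNT was within 2-fold, with 4515 in PTIP deficient and 3810 in wild-type cells, and CYP1B1 was under the reporter level with 55.5 in PTIP deficient and 8.47 in wild-type cells. With the reporter level in place of the floor, CYP1A1 is no longer past 2-fold.

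Some partners of single genes were also higher, and others lower. S100A10, the small protein that forms a complex with ANXA2, had 21156 in PTIP deficient and 5711 in wild-type cells, 3.70-fold. In the tetrahydrobiopterin set of PTS, GCH1, the first enzyme of the route, had 243 in PTIP deficient and 91.8 in wild-type cells, at least 1.85-fold, while SPR, its last, was within 2-fold with 667 against 361. For GNAS, the phosphodiesterase PDE4D, which breaks down cyclic AMP, had 155 in PTIP deficient and 32.9 in wild-type cells, at least 1.18-fold, and PDE8A had 77.8 against 32.4, both under the reporter level. The adenylyl cyclase ADCY7, in the same set, was under the floor in PTIP deficient cells, with 30.1 against 219 in wild-type cells. DLG1, a scaffold in the sets of PARD3 and MPP1, had 3214 in PTIP deficient and 1519 in wild-type cells, 2.12-fold. In those sets PARD6G was lower, with 147 in PTIP deficient and 332 in wild-type cells, as were MPP2, with 115 against 235, and DLG3, with 283 against 591. MLXIP, in the MAX network set of MXD4, had 2509.5 in PTIP deficient and 1248 in wild-type cells, 2.01-fold, while MYC itself had 32646 against 29115.

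In several other sets no gene measured in both arrays passed 2-fold in either direction. They included 16 genes of the SAGA set beside ATXN7, 8 genes of the TREX export complex beside THOC7 and 11 of the hexosamine route beside GNPDA1. Also among these first 6 sets were 9 genes of the polyamine route beside SAT1, 11 BMP pathway genes beside BMP7 and 11 factors of cytoplasmic polyadenylation beside CPEB1. Another 6 genes of these 6 sets reached the floor in 1 array only, and 1 of them passed the reporter level. This was the SAGA acetyltransferase KAT2B, with 163 in PTIP deficient and 24.4 in wild-type cells, at least 1.24-fold. In the BMP set the ligand BMP4 had 87.9 in PTIP deficient and 15.6 in wild-type cells, both under the reporter level, and BAMBI had 33.7 against 25.9. Others reached the floor in wild-type cells only. These were SMOX of the polyamine route, with 22.4 in PTIP deficient and 59.1 in wild-type cells, and 2 genes of the BMP set. The latter were BMPR1B, with 25.0 against 75.3, and NOG, with 18.5 against 65.0. The median log2 ratios of these 6 sets lay between -0.19 (BMP) and 0.11 (TREX). Nor did any measured gene pass 2-fold in the sets of MDK (5 measured), of COTL1 and MTSS1 (7) and of SYPL1 (4). CPEB2, a relative of CPEB1, came nearest to the bar, with 113 in PTIP deficient and 57.1 in wild-type cells, both under the reporter level. In the calcium and calmodulin kinase set of CAMKK1, CAMK2D was lower, with 109 in PTIP deficient and 1688 in wild-type cells. In the oxidative stress set of OSGIN1, glutathione reductase GSR was lower, with 676 in PTIP deficient and 5513 in wild-type cells. The membrane skeleton protein EPB41L2, in the set of MPP1, was lower too, with 107 in PTIP deficient and 730.4 in wild-type cells. The remaining lower genes were CD79B, a B cell receptor subunit in the set of SLA, with 3732 in PTIP deficient and 9437 in wild-type cells, and GALT, in the galactose set of GALM, with 56.7 against 114, signals under the reporter level. All 7 small leucine-rich proteoglycans other than LUM were under the floor in both arrays.

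**Figure D4:**
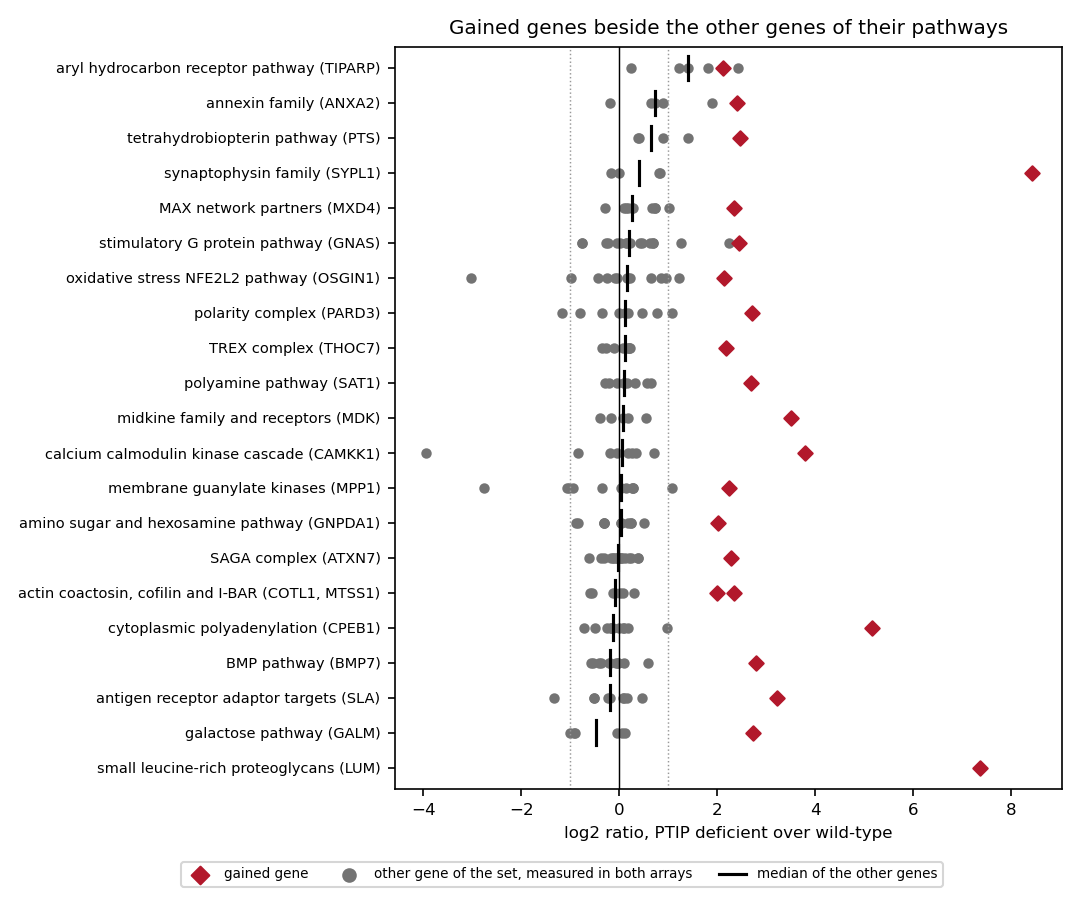
Log2 ratio of PTIP deficient over wild-type signal for each gained gene with a pathway set (red diamonds). Grey circles are the other genes of that set measured in both arrays, with a black bar at their median and dotted lines at 2-fold. Heights that rest on a wild-type signal under 131.5 are not measured folds. Most grey circles lie within 2-fold; 4 of 5 lie past it in the aryl hydrocarbon receptor set, and the proteoglycan set has no measured gene beside LUM.

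In 25 broader pathway lists, 659 genes were measured in both arrays; 57 (8.65%) passed 2-fold upwards and 57 downwards, beside 5.03% and 4.46% of all measured genes. The 57 higher genes include 5 of the 42 selected ones (BMP7, GNAS, CPEB1, ANXA2 and SAT1). Only 8 of these lists held a gene of the set. In the list of annexins, S100 and calcium-binding proteins, 4 of 20 measured genes were higher, ANXA2 and S100A10 among them. In the list for G protein subunits and cyclic nucleotides, 4 of 32 were higher, among them GNAS. In the list of cytoplasmic mRNA regulators, 1 of 37 was higher, which was CPEB1. Among genes with the same name stem as a selected gene, 14 of 307 measured (4.56%) were at least 2-fold higher and 19 (6.19%) lower, near the shares of all measured genes. They include ASAP1, with 283 in PTIP deficient and 124 in wild-type cells, and CHIR-A2, with 102 against 35.4, signals that both lie under the reporter level. Of the 307, 125 came from the stem of TMEM150B, 50 from that of RAB36 and 49 from that of RNF150. Only 26 of the 42 genes had any such gene counted. A shared stem was the only criterion, so these shares say little about close relatives.

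Markers of other cell types were set beside the surface and matrix genes, since LUM and PROM1 are used as markers of mesenchymal and progenitor cells. Over all measured genes, 5.03% were at least 2-fold higher in PTIP deficient cells and 4.46% were lower. Of 22 mesenchymal markers on the array, 7 were measured in both arrays and 1 was higher, COL1A1, with 206 in PTIP deficient and 65.7 in wild-type cells, at least 1.56-fold. The signals of this list summed to 1882 in PTIP deficient cells, and to 821 in wild-type cells, and without LUM to 863 in PTIP deficient and 814 in wild-type cells. DCN was near 0, at 5.58 in PTIP deficient and 2.40 in wild-type cells. Of 14 progenitor markers, 7 were measured in both. PROM1, a selected gene, alone was higher, and HLF alone was lower, with 327 in PTIP deficient and 738 in wild-type cells. The list summed to 23913 in PTIP deficient and 19791 in wild-type cells. HHEX, within 2-fold, made up 18337 of this in PTIP deficient and 12495 in wild-type cells, and without it the sum was lower in PTIP deficient cells, at 5575 against 7296 in wild-type cells. CD34 had 6.74 in PTIP deficient and 20.6 in wild-type cells, and KIT had 1.01 in PTIP deficient and 1.60 in wild-type cells, so both genes lay under the floor. Of 19 T cell markers, 9 were measured in both and 3 were higher, CD8A, CD5 and CD8BP. Against the reporter level these were at least 4.28-, 2.30- and 1.44-fold higher, so CD8BP is not past 2-fold as a bound. CD8A, with 563 in PTIP deficient and 78.2 in wild-type cells, passed both selection limits. It is 1 of the 11 symbols left out of the set, so its difference is part of the selection. The T cell list summed to 18038 in PTIP deficient and 9908 in wild-type cells, of which CD3D, within 2-fold, made up 15919 in PTIP deficient and 8831 in wild-type cells. CD3E had 45.5 in PTIP deficient and 46.5 in wild-type cells. ICOS, CD7 and IL7R reached the floor in PTIP deficient cells only, and GATA3, CD2 and THEMIS in wild-type cells only. All of these signals were under the reporter level. CD4, LCK, CD28 and CTLA4 were under the floor in both arrays. Of 16 neural markers, 8 were measured in both, with 3 higher (STMN2, SOX10 and NCAM1) and 2 lower (MAP2 and NEUROD1). Only STMN2 of the higher 3 passed the reporter level in both arrays. The list summed to 18685 in PTIP deficient and 7235 in wild-type cells, of which STMN2 made up 17712 and 5552. Of 8 macrophage and granulocyte markers so measured, CTSK was higher and CYBB and SPI1 lower. Of 3 epithelial ones TP63 was lower, and 5 thrombocyte and erythroid ones lay within 2-fold. All 19 B cell markers on the array reached the floor in both arrays, and 15 in PTIP deficient and 18 in wild-type cells reached the reporter level. Of the 19, 8 fell short of the wild-type signal by 2-fold or more in PTIP deficient cells and 0 exceeded it so, with sums of 27339.8 in PTIP deficient and 92223 in wild-type cells. Of these sums IGLL1 made up 3619 in PTIP deficient and 29961 in wild-type cells, and JCHAIN 68.5 against 11947. The part of these marker differences in the signals of the 42 genes was not tested. In RNA from whole cultures, more cells that express a gene and more RNA per cell cannot be told apart.

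On the chicken genome the 42 genes lay on 18 chromosomes, by the GRCg7b RefSeq annotation, from which only gene order is used. Chromosome 4 held 6 of them, or 0.62% of its 966 genes on the array. Chromosome 2 held 5 (0.43% of 1152), chromosome 1 held 4 (0.22% of 1790) and chromosome 12 held 4 (1.39% of 287). The whole array held 42 among 13009 genes. Gene order was taken over protein-coding genes with a probe set, so other annotated genes in between were not counted. In this order THOC7 and ATXN7, on chromosome 12, are direct neighbours that do not overlap in the annotation. PTPRG has 5 such genes between it and THOC7. The next closest pairs were NMRAL1 and PITPNC1L on chromosome 14, with 9 genes between them, and MTSS1 and SLA on chromosome 2 and GNAS and BMP7 on chromosome 20, each with 13 between. PAXIP1 itself lies on chromosome 2, with 23 genes between it and LOC420419 and 29 between it and PARD3.

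The nearest protein-coding genes with a probe set on each side of the 42, leaving out the 42 themselves, numbered 81. Of these, 61 were measured in both arrays. Their median log2 ratio was 0.15, and 6 (9.84%) were at least 2-fold higher and 2 lower, beside 5.03% and 4.46% of all measured genes. Among the 6 is ID3, with 564 in PTIP deficient and 43.1 in wild-type cells. It passed both selection limits and is 1 of the 11 symbols left out, so this share includes a gene chosen by the same contrast. Most neighbours were within 2-fold. NDFIP1, an adaptor for ubiquitin ligases beside GNPDA1, had 3129 in PTIP deficient and 933 in wild-type cells, a log2 ratio of 1.75. DGKZ, a diacylglycerol kinase beside MDK, had 1662 in PTIP deficient and 483 in wild-type cells, a log2 ratio of 1.78. The others were ID3 beside ASAP3, KLHL36 beside COTL1, B2M beside CPEB1 and CD8BP beside LOC422926, each with a wild-type signal under the reporter level. The 2 lower neighbours were BCR and MSS51. BCR, which overlaps RAB36, had 57.5 in PTIP deficient and 172 in wild-type cells. MSS51, beside PITPNC1L, had 58.6 in PTIP deficient and 119 in wild-type cells, both under the reporter level. Flanking genes could also be under the floor in both arrays: LUM lies between KERA, with 3.71 in PTIP deficient and 0.892 in wild-type cells, and DCN, given above. MPP1 lies beside DKC1, whose signal was 7085 in PTIP deficient and 7002 in wild-type cells. PROM1 lies beside TAPT1, with 811 in PTIP deficient and 799.5 in wild-type cells.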

How the data were processed

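Total RNA of 1 PTIP deficient and 1 wild-type DT40 culture was measured on the Affymetrix chicken genome array. The deposited table gives each probe set 1 linear intensity in each array. The authors processed the scans with GCOS, per the submitters' processing notes. The algorithm, its version and the genome build behind the array were not given in the sources used here. Averaged between percentiles 2 and 98, the deposited intensity was 499.9 in both arrays, so both had been scaled to a common target, and a difference in RNA per cell cannot be seen. No further scaling was applied. The log2 ratio is PTIP deficient over wild-type.

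The platform annotation named genes: 27168 probe sets had 1 symbol apart from controls, 177 had several and 11180 none. All 42 genes matched the RefSeq annotation. The floor of 31.0 is percentile 40 of the non-control values of both arrays. Each gene was counted by its probe set of highest mean log2 signal, and 2-fold was the bar. With 1 array per genotype there is no test, and the number of arrays limits the precision.

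Any selected gene could be named. Others named are PAXIP1, the 5 probe sets nearest outside each limit, relatives by name, chromosome neighbours, markers, and up to 3 genes per list with the largest log2 ratio. The genes of the 21 pathway sets were named outside this rule, after their values were seen. The genes and lists were chosen with earlier results of these data known. The pathway sets and functional groups were drawn up after the selected genes and their values were seen. Listed names were matched exactly, or through a unique RefSeq synonym whose symbol begins with the listed name, a limit set after other synonyms gave wrong genes. Alternatives tried were quantile, median and loess (span 0.3, 3 passes) normalisation, other limits, other floors and other choices of probe set. The counting steps recovered all planted changes when tested on simulated data. The planted changes were far past the 4-fold limit, so this checks the counting only and not differences near the limits. Python 3.11.15, numpy 2.4.6, pandas 2.3.3, statsmodels 0.14.6 and matplotlib 3.10.9 were used.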

Additional observations from a re-analysis of the deposited data

Results flagged for a closer look

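A signal appeared outside the measurements compared in the report. Of 57 probe sets for reporter and marker sequences, which do not belong to the chicken genome, 1 had a signal of 2675 in the PTIP deficient array and 5.54 in the wild-type array, at least 20.3-fold over the reporter level. The other 56 reached at most 101 in the PTIP deficient array and 131.5 in the wild-type array. The source of this signal was not tested.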

How the results depend on the processing

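The size of the set depended on its limits. With a signal limit of 1000 it held 27 probe sets of 22 genes, with a fold limit of 3 it held 104 of 82 genes, and with a fold limit of 8 it held 19 of 16 genes, against 52 of 42 genes. Without the probe sets marked as able to match several transcripts, 29 probe sets of 28 genes were left. The count of listed pathway genes at least 2-fold higher was 57, and 26 with the floor at percentile 60, which tests fewer genes. Other settings moved a count by at most 1.5 times. Quantile normalisation left 42 genes, 41 of them shared (MTSS1 was lost), and median or loess scaling left 40, without GNPDA1 and MTSS1. Scaling to the spike-in controls, whose median log2 ratio was 0.30, was not tried, so the count under it is not known. A signal limit of 250 gave 63 genes, raising wild-type signals to the reporter level gave 41 (CD82 was lost), the brightest probe set of each gene gave 41, and the mean of all its probe sets left 30. With no symbol left out, a setting added after seeing the data, there were 66 probe sets of 53 genes. Under the 3 scalings, the log2 ratios of the 42 genes all moved by less than 0.36. None changed sign, but each gene was chosen as at least 4-fold higher, so such shifts could not reverse any. With the mean of all probe sets, 18 moved by more, and none changed sign. No paired analysis was possible because each genotype had 1 array. Signals under 131.5 cannot be told apart from the reporter probe sets, so for 21 genes only a bound on the fold is known.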

Other observations

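Among 11214 probe sets without a single gene symbol, 12 passed the same limits, and 7 of them had a wild-type signal under the reporter level. The brightest had 3797 in PTIP deficient and 10.2 in wild-type cells, and 1 of the 12 carried several symbols. They are not named here.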
